A study of Arabidopsis thaliana with 6 samples.

Results

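The comparison described here is that of high with ambient CO2 in high light. It sets 1 array against 1, the array titled for high light and high CO2 against the array titled for high light and ambient CO2, out of 6 arrays in the series. Both hold RNA from rosette centres, with leaves up to leaf 11, of Col-0 plants (Arabidopsis thaliana, wild type, with no transgene or mutation named). The plants grew on compost in a growth room kept at 21 degrees C, under days of 10 h and nights of 14 h, were treated with an insecticide (Intercept), and were sampled at growth stages 3.20 to 3.50. The other 4 arrays hold the same tissue from medium and low light at each CO2 level, and they are used to show which of the 2 high-light arrays stands apart. The light intensities, the CO2 concentrations, the hour of harvest and the number of plants behind each RNA are unknown here. The title of the high-CO2 array and its atmosphere entry conflict, since the title names high CO2 and the entry names normal air. It is placed by its title, and by the atmosphere entry the pair would be 2 arrays of normal air with no CO2 difference to describe. With 1 array on each side no difference has a replicate check, so every value below is a description of these 2 arrays and no p-value is given.

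Carbon dioxide is the substrate that Rubisco fixes in the Calvin-Benson cycle, and oxygen competes with it in the reaction that starts photorespiration, so raised CO2 is known to favour fixation over photorespiration. In strong light leaves are known to absorb more energy than fixation can use, and they respond with antenna adjustment, anthocyanin synthesis and stress signalling through calcium and zinc-finger transcription factors. Raised CO2 is also known to close stomata and, over development, to change how many form, which is the question the series title names.

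Signals are MAS5 intensities, which give 1 value for each probe set of the ATH1 array. All 6 arrays had the same 2% trimmed mean, 100, and median signals between 40.7 and 43.2, so no difference in overall scale remained. Signals under 20 were set to 20 before taking log2, a fold whose lower side was under 20 is given as "at least", a log2 difference of that kind is likewise a lower limit on its size, and the 64 control probe sets were left out. The labelled tissue was checked with photosynthesis genes of the leaf. Of 10 fixed, 5 carried a gene name (RCA, PRK, SBPASE, LHCB4.1 and LHCB4.2), with signals between 2036 and 5903, and their summed signal was 15087 in ambient and 16559 in high CO2 in high light, against 15087 to 19677 over all 6 arrays. Of the meristem markers only CLV3 carried a name, with signals of 8.6 and 1.9 in the pair, both under the floor, and no flower, vascular or guard cell marker on the lists carried one. The 3 prime to 5 prime signal ratio of the actin control was 5.37 in ambient and 4.81 in high CO2, inside the 3.99 to 7.54 of the other arrays. The 9 hybridisation spike probe sets were higher on the high-CO2 array, by a median of 0.32 log2 units (0.06 to 1.13), and the 25S ribosomal RNA control had 1724 in ambient and 2264 in high CO2. Both controls were higher in high CO2 in low and medium light too. The spikes had a mean log2 of 7.19 in ambient and 7.63 in high CO2 in low light, and 7.65 and 8.02 in medium light. The 25S control had 840 and 1628 in low light, and 398 and 2286.5 in medium light. The part of these control differences in the results was not tested.

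Past 2-fold in high light, more probe sets were lower than higher in high CO2. With no fold limit the order was the reverse, with 8303 probe sets higher, 7609 lower and 6834 equal. At least 2-fold lower were 317 of 22746 probe sets (1.39%), and 129 (0.567%) were at least 2-fold higher. The largest difference of a named gene was that of AT4G29780, with 792 in ambient and 33.9 in high CO2, and the largest in the other direction that of PDF1.2b, a plant defensin, with 38.1 and 770. Lower probe sets outnumbered higher ones at larger folds too. At 4-fold 59 probe sets were lower and 12 higher, at 8-fold 20 and 4, and at 16-fold 4 and 1. The median difference over all probe sets was 0 with an SD of 0.36 log2 units, and 6771 probe sets were under 20 on both arrays. Of the lower probe sets 58 had a high-CO2 signal under 20, and of the higher ones 29 had an ambient signal under 20.

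The share of lower probe sets did not come from dim signals alone. With a mean signal of the pair over 20 and up to 50, 1.86% were lower and 1.23% higher. Between 50 and 100 the shares were 2.24% and 0.754%, between 100 and 300 they were 2.22% and 0.59%, and over 300 they were 1.36% and 0.282%. The dimmest of these bins held 67 of the 129 higher probe sets and 101 of the 317 lower ones. Among the 7090 probe sets with a brighter signal of at least 100, 192 (2.71%) were lower and 48 (0.677%) higher.

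**Figure D1:**
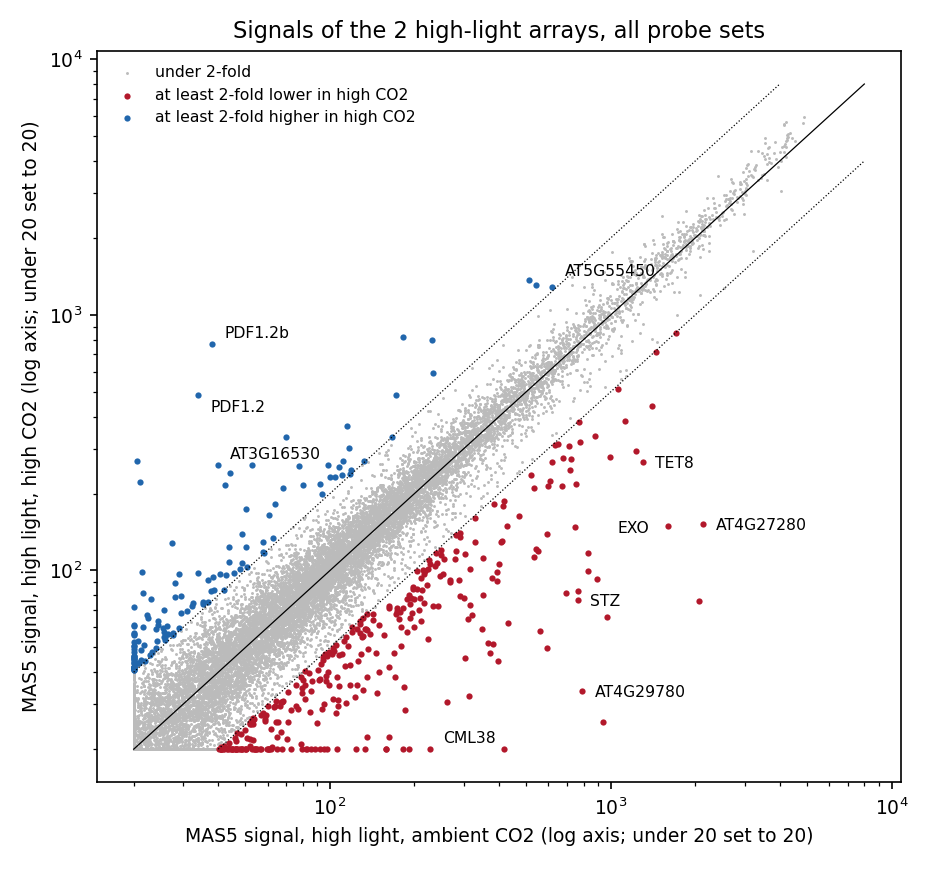
MAS5 signal of each of the 22746 probe sets on the high-light ambient-CO2 array (horizontal) and the high-light high-CO2 array (vertical), both on log axes with signals under 20 set to 20. The solid line marks equal signals and the dotted lines 2-fold; 317 probe sets lie at or beyond the lower line and 129 at or beyond the upper; the labelled AT4G27280 has 2131 in ambient and 152 in high CO2.

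The pair differed more than the CO2 pairs of the other light levels did. At least 2-fold different in either direction were 1.96% of probe sets in high light, 1.37% in medium light and 0.809% in low light. In medium light the excess ran the other way, with 197 (0.866%) higher and 114 (0.501%) lower in high CO2. Low light had 69 (0.303%) higher and 115 (0.506%) lower. The SD of the log2 differences was 0.36, 0.31 and 0.28 at high, medium and low light. No pair of arrays is a replicate pair, so how far 2 arrays of the same condition would differ is not known here.

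**Figure D2:**
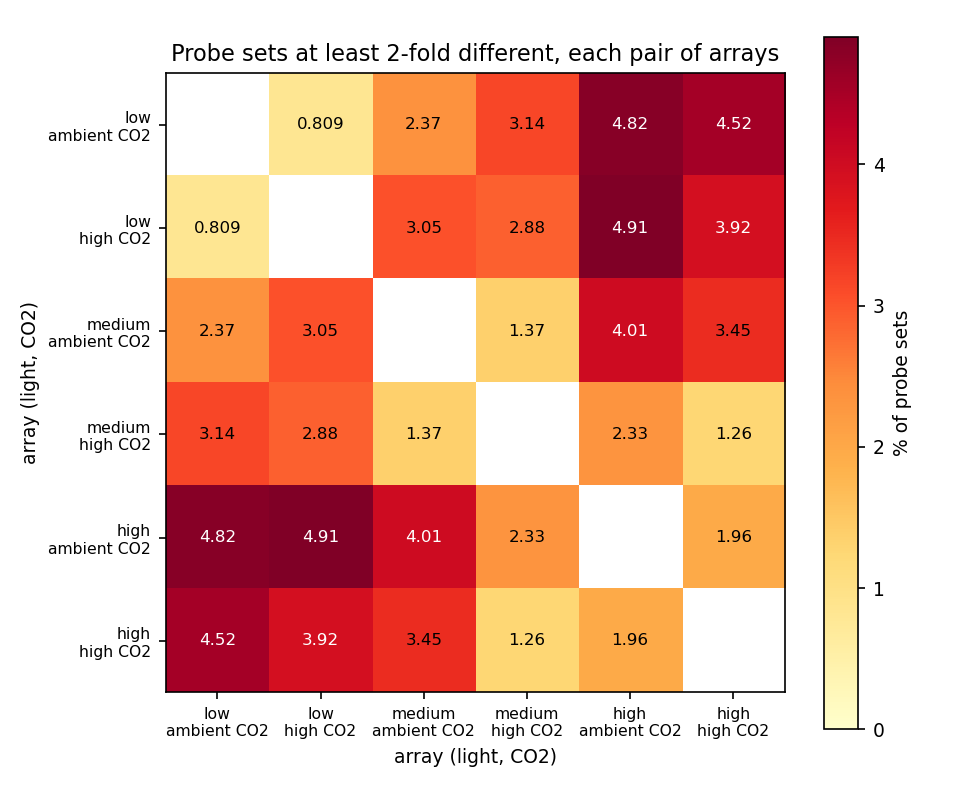
Percentage of probe sets at least 2-fold different (floor of 20) for each of the 15 pairs of arrays, with light and CO2 level named on both axes. The high-light high-CO2 array differs least from the medium-light high-CO2 array (1.26%), and the high-light ambient-CO2 array differs from every other array in at least 1.96%.

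Set against all arrays, the high-light high-CO2 array was nearest to the medium-light high-CO2 array (1.26% at least 2-fold different), nearer than to its partner in high light (1.96%). The high-light ambient-CO2 array had its nearest array in that partner, and it differed from medium light in ambient CO2 in 4.01% of probe sets. An array was said to stand apart for a probe set when its log2 signal lay at least 1 unit outside the range of the 4 medium-light and low-light arrays. That range holds light differences too. Over all probe sets the ambient array stood apart above the others in 230 and below in 43, and the high-CO2 array above in 78 and below in 42.

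Among the 317 probe sets lower in high CO2, the ambient array alone stood apart in 159 (50.2%) and the high-CO2 array alone in 6 (1.89%), with both apart in 1 and neither in 151. The floor limited the count of 6, which were apart below, and not that of 159. In AT4G29780 the lowest of the other 4 signals was 35.7, so the high-CO2 array could not stand apart below. How far the floor sets this contrast was not computed. The ambient array held the highest signal of all 6 in 281 of the 317, and the high-CO2 array the lowest in 107. Measured from the median of the other 4 arrays, the ambient signals of this set had a median of 1.32 log2 units and the high-CO2 signals of -0.11. So for this set the high-CO2 array mostly lay where the medium-light and low-light arrays lay, and the ambient array lay above them. Since the choice of probe sets uses both signals of the pair, high ambient and low high-CO2 signals are built into the chosen set. The comparison of the 2 arrays with the other 4 is what the description adds.

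Among the 129 probe sets higher in high CO2, the high-CO2 array alone stood apart in 34 (26.4%) and the ambient array alone in 12 (9.30%), with both apart in 1 and neither in 82. The limit set by the floor bore on the 12, which were apart below, and not on the 34. Here the high-CO2 array was the highest of all 6 in 104 and the ambient array the lowest of all 6 in 60. Median distances from the other 4 arrays were 0.96 log2 units for the high-CO2 signals and -0.38 for the ambient signals. The set was thus mixed, with high signals of the high-CO2 array in some probe sets and low signals of the ambient array in others. Both kinds of signal are built into the choice of this set too.

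**Figure D3:**
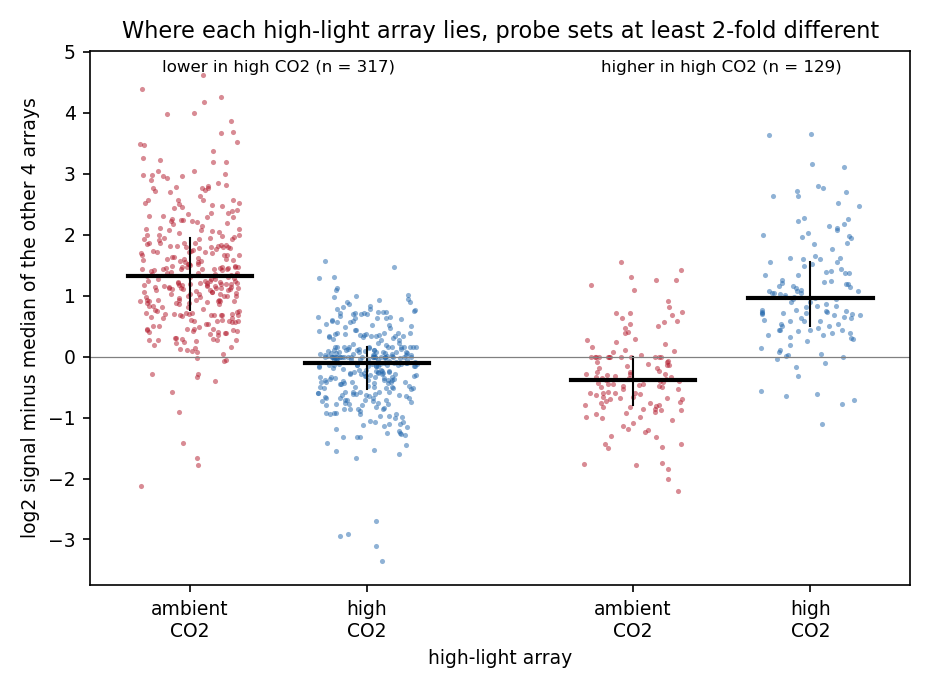
Log2 signal of each high-light array minus the median of the other 4 arrays, for the 317 probe sets at least 2-fold lower and the 129 at least 2-fold higher in high CO2; each point is a probe set, thick bars are medians and thin bars run between quartiles. In the lower set the ambient array has a median of 1.32 and the high-CO2 array -0.11, and in the higher set the medians are -0.38 and 0.96.

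Among the 15 named genes with the largest differences downward, the ambient high-light array held the highest of the 6 signals in 15 of 15. They were chosen as the largest differences among genes with a brighter signal of at least 100, so high ambient signals are built into the choice. In EXLA1 the ambient array was the highest but did not stand apart. Here and below, 3 signals in a row are those of low, then medium, then high light. ZAT10 (STZ in the gene table), a zinc-finger transcription factor of stress responses, had signals of 60.5, 58.6 and 764 in ambient CO2 and of 90.9, 53 and 76.6 under high CO2. In high light that is 9.98-fold lower in high CO2, a log2 difference of -3.32. On the other 5 arrays ZAT10 stayed at or below 90.9. CML38, a calmodulin-like calcium-binding protein, had 228 in ambient and 16.8 in high CO2 in high light and between 15.2 and 33 on the other 4 arrays, at least 11.4-fold lower in high CO2 in high light. Its signal was near the floor on all arrays other than that of ambient high light.

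The other 3 of these 15 with a symbol were EXO, EXLA1 and TET8. EXO, an extracellular protein of brassinosteroid-promoted growth, had 73.9, 162 and 1595 in ambient and 69, 136 and 149 under high CO2, a log2 difference of -3.42 in high light. EXLA1, an expansin-like cell wall protein, had 67.2, 21.8 and 162 in ambient and 97.3, 14.2 and 22.3 under high CO2, 7.25-fold lower in high light. The low-light signals of EXLA1 lay between those of the 2 high-light arrays, unlike those of EXO. TET8, a membrane tetraspanin, had 290, 221 and 1299 in ambient and 330, 215 and 265 under high CO2, 4.89-fold lower in high light.

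The other 10 of these 15 have no symbol beyond their locus in the gene table. AT4G29780 had 77.8, 65.4 and 792 in ambient and 84.2, 35.7 and 33.9 under high CO2, 23.4-fold lower in high light. AT4G27280, the brightest of them, had 161, 134 and 2131 in ambient and 217, 97.1 and 152 under high CO2, 14.0-fold lower. In both, the high-light signal in high CO2 lay among or under the medium-light and low-light signals. The remaining 8 were AT3G04640 (log2 difference -3.27), AT2G39650 (-3.10), AT1G35210 (at least 7.92-fold), AT1G72940 (-2.74), AT5G66650 (at least 6.19-fold), AT3G23170 (-2.39), AT3G19680 (-2.34) and AT4G24380 (-2.26). The largest 2 differences in this direction over all probe sets belonged to ones with no gene name in the annotation used, 1 with 935 in ambient and 25.5 in high CO2 and 1 with 2055 and 76.1.

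**Figure D4:**
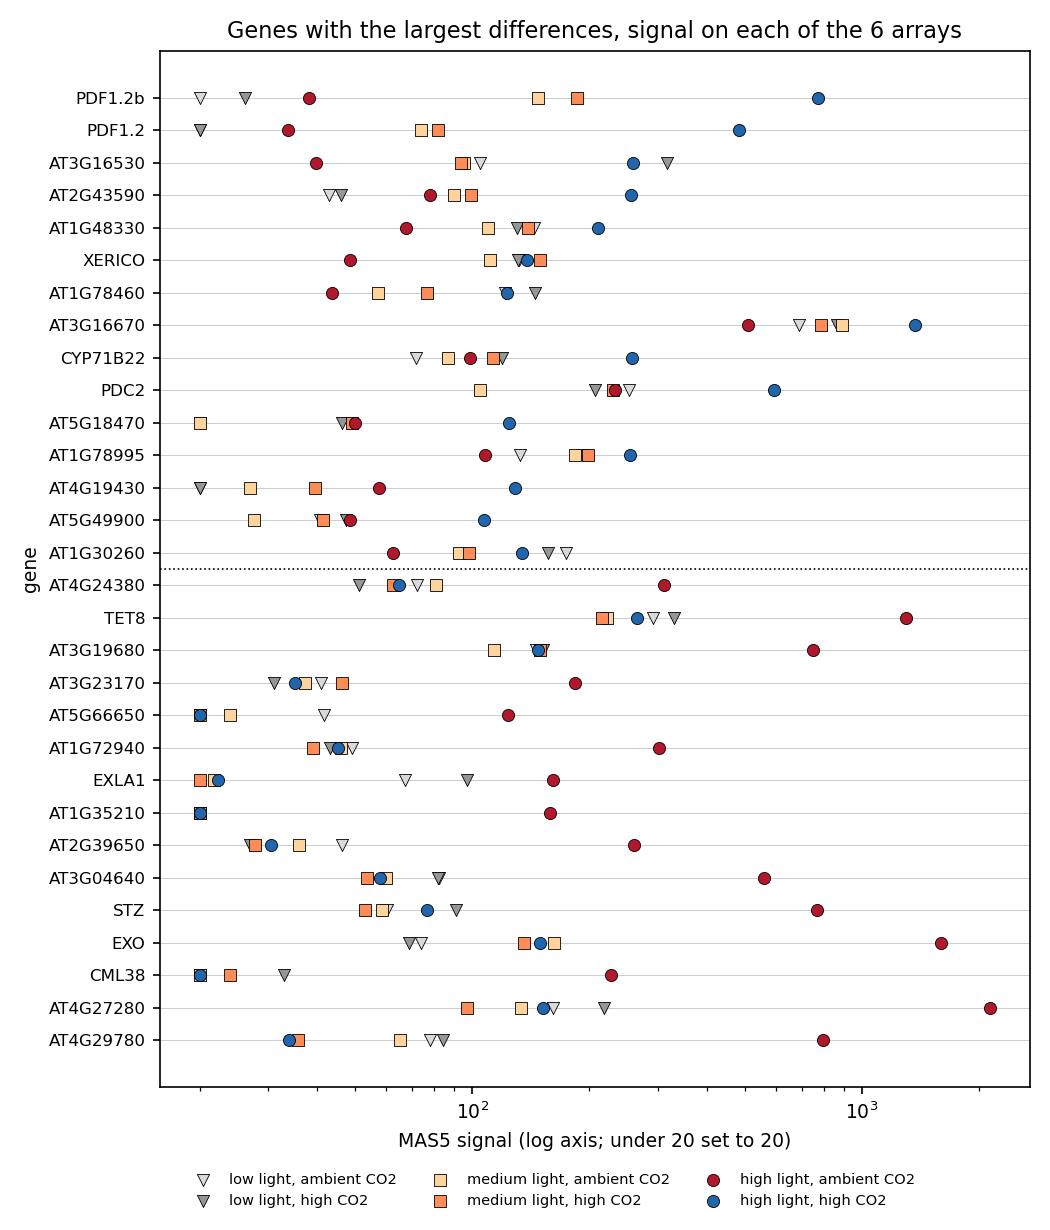
MAS5 signal (log axis, under 20 set to 20) on each of the 6 arrays for the 15 genes with the largest difference in each direction; triangles are low light, squares medium light and circles high light, and the dotted line separates higher (above) from lower (below) in high CO2. Below the line the red circle of the high-light ambient-CO2 array is the highest point in 15 of 15 genes, and above it the blue circle of the high-light high-CO2 array is the highest in 11 of 15.

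Further genes with symbols among the 317 were chosen for naming after their values were seen, to show the roles present. In signalling these were CML37, with 54.1 in ambient and 5.8 in high CO2 (at least 2.71-fold), the receptor kinase THE1, a sensor of cell wall integrity (142 and 67.3), the kinase PTI1-4 (224 and 101), the secreted peptide RALFL33 (351 and 112) and the transcription factor ORA47 (64.1 and 30.9). The ubiquitin ligases PUB19 (78.7 and 21) and PUB25 (41 and 19.2, at least 2.05-fold) were lower too. ORA47 and PUB25 did not share the shape of ZAT10, since their low-light ambient signals, 108 and 42.9, were above those of high light in ambient CO2. In the cell wall EXLA2 had 79.3 and 12.8 (at least 3.96-fold) and ATPMEPCRB, a pectin methylesterase, 192 and 65.1. SRC2, a cold-regulated C2-domain protein, had 879 and 336, and MGL, which breaks down methionine, 180 and 50.5. Of the genes named in this paragraph, the ambient array stood apart in CML37, ATPMEPCRB and SRC2 alone. In THE1, PTI1-4, RALFL33, PUB19, EXLA2 and MGL it held the highest signal but did not stand apart.

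The genes higher in high CO2 were led by defensins, antimicrobial peptides induced by jasmonate with ethylene. PDF1.2 had 8.6, 74.1 and 33.8 in ambient CO2 and 17.2, 82 and 484 under high CO2. PDF1.2b had 18, 147 and 38.1 in ambient CO2 and 26.1, 185 and 770 under high CO2, so in both genes the high-light high-CO2 array was the highest and the ambient high-light signal lay under both medium-light signals. The log2 differences in high light were 3.84 for PDF1.2 and 4.34 for PDF1.2b. The probe set of PDF1.2b is of a kind that can bind near-identical copies, so these 2 values may not be independent of each other. Of 5 genes with a PDF symbol that carried a name, the other 3 were under 20 on both arrays.

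XERICO, a RING protein that raises abscisic acid, had 132, 111 and 48.5 in ambient and 131, 149 and 138 under high CO2, 2.85-fold higher in high light. In this gene the ambient high-light array was the low one, and the high-CO2 signal lay among those of medium and low light. PDC2, a pyruvate decarboxylase of fermentation, had 252, 105 and 233 in ambient and 207, 230 and 594 under high CO2, 2.55-fold higher in high light. CYP71B22, a cytochrome P450, had 71.6, 86.9 and 98.7 in ambient and 120, 113 and 258 under high CO2, 2.61-fold higher. For these last 2 the high-CO2 array was the one apart.

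The remaining 10 of the 15 genes with the largest differences upward carry only a locus number. AT3G16530 had 105, 95.1 and 39.8 in ambient and 317, 93.5 and 258 under high CO2, a log2 difference of 2.70 in high light. Its highest signal was that of low light in high CO2. The others, as log2 differences unless a fold is given, were AT2G43590 (1.71), AT1G48330 (1.63), AT1G78460 (2.82-fold), AT3G16670 (1.42, with 511 and 1369), AT5G18470 (1.31), AT1G78995 (1.23), AT4G19430 (1.17), AT5G49900 (1.14) and AT1G30260 (2.14-fold). Across all 15, the high-CO2 array was the highest of the 6 in 11 and the ambient array the lowest in 7, counts that the choice by difference favours. Differences larger than those of these 10 were also seen in 2 probe sets with no gene name, 1 with 20.5 in ambient and 267 in high CO2 and 1 with 21 and 222.

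Gene lists were read against the 13286 genes with 1 probe set each, of which 66 (0.497%) were at least 2-fold higher and 156 (1.17%) at least 2-fold lower, with a median of 0. Of 493 genes on 31 lists only 76 carried a name under the annotation used, 66 of them with a signal of at least 20 on an array of the pair. In all, 2 listed genes were at least 2-fold higher and 12 at least 2-fold lower, and the median over the 76 was -0.03. The lists were chosen with earlier results of these data known, so their counts are not independent evidence of a direction.

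Flavonoid and anthocyanin synthesis, which makes the red pigments of strongly lit leaves, had 6 of 24 listed genes measured. Of these 6, 4 were at least 2-fold lower in high CO2, and their median was -1.35, a value for the measured members alone. DFR, the reductase at the entry to anthocyanins, had 47.1, 89.7 and 197 in ambient CO2 and 36.8, 63.5 and 68.3 under high CO2, a log2 difference of -1.53 in high light. UF3GT, a glycosyltransferase, had 30.3, 34.3 and 169, and 25.3, 31.5 and 47.7, a log2 difference of -1.82. AT4G14090, placed on this list, had 2.3, 16.1 and 135, and 1.2, 15.2 and 38.3, also -1.82. In these 3 genes the ambient high-light signal was the highest, and the high-CO2 one was below it. AT5MAT, an anthocyanin malonyltransferase, had 66.6 in ambient and 29.6 in high CO2 in high light (-1.17), while the flavonoid glucosyltransferase UGT78D2 (155 and 106, -0.54) was under 2-fold and UGT78D1, a flavonol rhamnosyltransferase, was slightly higher (107 and 129, 0.27).

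The list of cold, drought and abscisic acid targets had 4 of 27 genes measured, all lower in high CO2, 2 of them at least 2-fold, with a median of -1.01. LTI30, a dehydrin that protects cells in drying and cold, had 127, 64.9 and 217 in ambient CO2 and 141, 109 and 96.6 under high CO2 (-1.17 in high light). COR47, another dehydrin, had 585, 254 and 771, and 1028, 395 and 381 (-1.02). COR15A, a chloroplast protein of freezing tolerance, had 1050, 440 and 2540, and 1329, 1123 and 1272, just under 2-fold in high light (-0.998). The highest COR47 signal was that of low light under high CO2, not that of ambient high light. In medium and low light the order within pairs was the reverse of that in high light, with each of the 4 genes higher in high CO2 at both levels. COR15B differed least in high light, with 1785 and 1510 (-0.24).

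On the list of early stress transcription factors and signalling 1 of 4 measured members, ZAT10, was at least 2-fold lower. WRKY53 had 88.9 and 46.4 (-0.94), WRKY22 47.9 and 34.8 (-0.46), and WRKY6 was under 20 on both arrays. Both measured members of the touch and calmodulin-like list, CML37 and CML38, were at least 2-fold lower, while 5 other genes with a CML symbol, not on the list, were not. EXO was the 1 of 3 on the dark and sugar starvation list past 2-fold, beside MCCA (-0.19) and IVD (0.37). The single measured wax gene, WSD1, a wax ester synthase, had 105 and 27.8 (-1.92), and the single measured nitrogen gene, AT3G21670, 86.2 and 36.9 (-1.22). AT3G21670 was lower in high CO2 in medium (-1.56) and low light (-0.80) too.

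**Figure D5:**
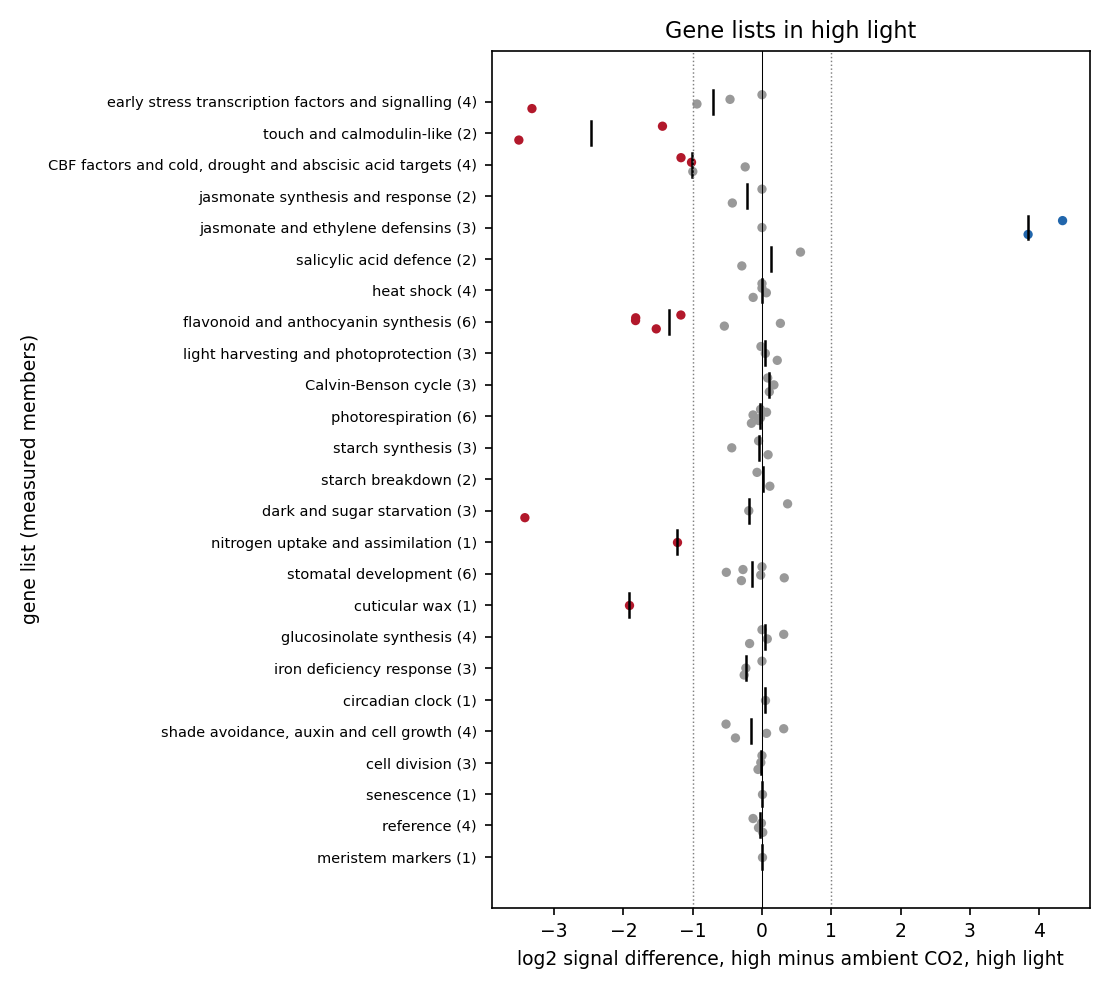
Log2 signal difference, high minus ambient CO2 in high light, of each measured member (point) of the 25 gene lists with a member, with the list's median as a black bar and 2-fold as dotted lines. The defensin members PDF1.2 and PDF1.2b lie at 3.84 and 4.34, 4 flavonoid members lie under -1, and the light harvesting, Calvin-Benson and photorespiration members lie between -0.15 and 0.22.

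The measured members of the light harvesting, Calvin-Benson and photorespiration lists were under 2-fold between the 2 arrays. A photosynthesis gene outside these lists, petG of the cytochrome b6f complex, was 2.54-fold lower in high CO2 (172 and 67.5). In light harvesting LHCB4.1 (4228 in ambient and 4926 in high CO2), LHCB4.2 (3042 and 3145) and LHCB4.3 (715 and 707) had log2 differences of 0.22, 0.05 and -0.01. The 3 Calvin-Benson genes, RCA (3608 and 3883), PRK (2173 and 2449) and SBPASE (2036 and 2156), lay between 0.08 and 0.17. In photorespiration the 6 measured members lay between -0.15 (AT1G11860) and 0.07 (AT1G80380), with HPR, hydroxypyruvate reductase, at 1505 and 1454. The reference genes GAPC2 (0.01) and PEX4 (-0.05), and the loci AT4G34270 (-0.13) and AT2G28390 (-0.01), differed as little. None of these 16 listed genes, petG not among them, reached 2-fold, though without a replicate a small difference does not show equal levels.

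Measured were 3 of 16 listed starch synthesis genes, 2 of 16 starch breakdown genes and 1 of 16 clock genes. All were under 2-fold, namely APL3 (-0.44), SBE2.2 (0.09), APL4 (-0.05), PWD (0.11), DPE1 (-0.07) and the clock gene GI (0.05). Among growth genes EXPA8, an expansin, had -0.38, IAA29, an auxin-response repressor, 0.31, FHL -0.52 and YUC2 0.07. The mitotic kinases AUR1 and AUR2 had -0.06 and 0.00. Largest in absolute size on the remaining lists were UGT74B1 of glucosinolate synthesis (0.31), PYE of the iron response (-0.26), GRX480 of salicylic acid defence (at least 0.56, with 12.6 and 29.4), the heat shock gene ATHSP22.0 (-0.13) and the thionin THI2.1 (-0.43, with 26.9 and 18.1). THI2.2, a thionin outside the lists, was past 2-fold, with 112 in ambient and 53 in high CO2 (-1.08). It was lower in high CO2 in medium (-0.80) and low light (-0.61) too.

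Stomatal development genes, the subject of the series title, did not reach 2-fold in high light. SPCH, which starts the stomatal lineage, had 67.7 in ambient and 47.4 in high CO2 (-0.51), and FAMA (FMA in the gene table), which completes guard cell formation, 80.6 and 79.6 (-0.02). STOMAGEN, a secreted promoter of stomata, had 279 and 227 (-0.30), and ATSBT5.2, the protease CRSP, 37 and 30.6 (-0.27). AGL16 was the only one higher in high CO2, with 92.5 and 116 (0.32), and MUTE was under 20 on both arrays (14.8 and 17.2). Of the 21 listed genes these 6 carried a name, with a median of -0.15.

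The probe sets chosen in high light were then read in the other light levels, on arrays that the choice did not use. For the 129 higher in high light the median CO2 difference was 0.25 in medium and 0.18 in low light, with 93 and 76 of them higher in high CO2 there. At least 2-fold higher were 25 of the 129 in medium light and 15 in low light, beside 197 and 69 of all 22746 probe sets (0.866% and 0.303%). None of the 129 was at least 2-fold lower at either level, beside 0.501% and 0.506% over all probe sets. Of the 317 lower in high light the medians were 0 at both levels, with 137 higher and 149 lower in medium light and 134 and 149 in low light. At least 2-fold lower were 9 of the 317 in medium and 14 in low light, beside 114 and 115 of all 22746 (0.501% and 0.506%). At least 2-fold higher were 6 and 2 of the 317, beside 197 and 69 of all 22746 (0.866% and 0.303%). These shares of the 317 were above those over all probe sets in both directions. The shares over all include the 6771 probe sets under 20 on both high-light arrays, which could not enter either set. Whether the 2 sets differ in this was not tested. The hybridisation spikes and the 25S control were also higher in high CO2 at both of these levels, and their part in this was not tested.

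At least 2-fold higher at all 3 light levels were 11 probe sets, of which 2 carry a gene name. AT5G55450 had 159, 239 and 620 in ambient CO2 and 318, 711 and 1287 under high CO2. AT5G18470 had 14.8, 19.9 and 50.1 in ambient CO2 and 46.5, 49.2 and 124 under high CO2. In both genes the signal at each CO2 level was lowest in low light and highest in high light. At least 2-fold lower at all 3 levels were 3 probe sets, with 1 named, AT4G17470, which had 114, 44.8 and 48.8 in ambient and 2.3, 5.1 and 12 under high CO2.

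Features that the comparison did not use were read from the gene table. The lower genes had a median gene span of 1859 bp (quartiles 1208 and 2610) and the higher genes of 1613 bp (1180 and 2835), against 2105 bp (1400 and 3044) for all 13286. The 68 lower genes for which the ambient array alone stood apart had 1696 bp. All of these genes had a length in the table, and no test was made. Of the 66 higher genes 10 (15.2%) had another higher gene within 5 gene positions on the chromosome, and of the 156 lower genes 8 (5.13%) had another lower one. The share for sets of these sizes drawn from all genes was not computed, so no clustering is read from these shares. The neighbouring pairs included CYP71B22 with CYP71B23 (1.38 and 1.23) and AT2G43570 (symbol CHI, not on the flavonoid list) with AT2G43590 (at least 1.15, and 1.71). Others were AT5G55420 with AT5G55450 (1.75 and 1.05) and, among the lower, AT1G72920 with AT1G72940 (-2.14 and -2.74). Neighbours of this kind can be similar copies that share a probe's target, and this was not checked.

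Within families, named after their values were seen, the differences past 2-fold lay in a few members. Members under 20 on both arrays were set equal and could show no difference. Of 7 genes with a CML symbol, CML38 and CML37 were at least 2-fold lower, CML23 had 38.3 and 9 (at least 1.92-fold), and CML42, CML41, CML43 and CML30 lay between -0.04 and 0.73 with signals under 20 set to 20. Of 3 EXLA genes, EXLA1 and EXLA2 were lower and EXLA3 was under 20 throughout, while the 14 EXPA and EXPB expansins lay between -0.76 and 0.37. Of 10 RALF-like genes 5 had a signal of at least 20 on an array of the pair. RALFL33 was the 1 past 2-fold, beside RALFL34 at 1154 and 1167. Of 15 tetraspanins 10 had such a signal, and TET8 was the 1 past 2-fold, with TET9 at 38.2 and 9.9 (at least 1.91-fold). Of 19 CYP71B genes, 10 of them with such a signal, 2 were at least 2-fold higher, CYP71B22 and its neighbour CYP71B23 (21.7 and 51). The rest lay between -0.29 and 0.39. None of 6 WRKY genes that carried a name, 4 of them with such a signal, reached 2-fold, the farthest being WRKY53.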

How the data were processed

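Total RNA and a biotin label are named for 6 ATH1 arrays of 22810 probe sets, 1 array for each combination of 3 light and 2 CO2 levels (per the labels). How the labelled material was made from the RNA is not described here. What the authors deposited is a linear intensity for each probe set, and the submitters' processing notes name MAS5, with its version and settings not given in the sources used here. Nothing says whether arrays came from separate plantings. MAS5 subtracts mismatch signal, which makes low values noisy on a log scale, and detection calls were not used. The 2% trimmed mean was equal on all arrays, so the authors' values had been scaled before deposit.

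Signals under 20 were set to 20, taken to log2 and subtracted (high minus ambient CO2) in Python 3.11.15 with pandas 2.3.3, for 22746 probe sets without the 64 controls. A difference of at least 2-fold was counted and no significance test was made. The counting code was checked on simulated data with known differences, which says nothing about chance in these arrays. The annotation named 1 gene for 13513 probe sets, several for 503 and none for 8794, and 13436 were found in a RefSeq gene table (assembly TAIR10.1). For each gene the gene-specific, then the brighter, probe set was used. Named were the 15 largest differences in each direction with a brighter signal of at least 100, up to 5 members a list past 2-fold or else its largest, and all measured stomatal genes. The members and lists were chosen with earlier results of these data known. A planned description of promoter motifs was not made here. No arrays were replicated, so their number limits the precision.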

Additional observations from a re-analysis of the deposited data

Results flagged for a closer look

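CO2 differences of at least 2-fold and opposite sign in high light and at another light level were found for 4 named genes, all lower in high CO2 in high light. They were AT3G59350 (log2 difference -1.38 in high light, 1.31 in medium light), petG, a plastid gene of the cytochrome b6f complex (-1.35 and 1.19), AT1G76360 (-1.11, and at least 1.13, with 1.7 and 43.9 in medium light) and AT3G09700 (-1.04, against at least 1.22 in low light, with 18.6 and 46.6). Over all probe sets, 6 lower in high light were at least 2-fold higher in medium light and 2 were so in low light, and none of those higher in high light was at least 2-fold lower at either level. Each difference rests on 1 array a condition and the difference between light levels was not tested.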

How the results depend on the processing

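Among probe sets past the fold limit, more were lower than higher in high CO2 under every alternative run. The counts lower and higher, 317 and 129, were 603 and 337 with a floor of 10, 192 and 48 with a floor of 50 or, by construction the same, with a brighter signal of at least 100, 2115 and 1349 with a floor of 0.1, and 108 and 25 at 3-fold. They were 303 and 136 with quantile normalization, 307 and 134 with equal medians, and 308 and 119 with gene-specific probe sets alone. The share higher was 28.9%, and between 20% and 38.9% under the other floors. The ambient array alone stood apart in 159 of the 317 lower probe sets, and the high-CO2 array alone in 34 of the 129 higher ones. These became 188 of 603 and 43 of 337 with a floor of 10, and 124 of 192 and 24 of 48 with a floor of 50. With a floor of 0.1 they were 319 of 2115 and 149 of 1349. Both shares were thus smaller with the lower floors and larger with a floor of 50. At 0.5 log2 units outside the range the counts were 212 and 55. Of 61 named genes no difference past 2-fold changed sign under any floor or scaling. With a floor of 50, 17 moved by more than 0.36 log2 units, the SD of all differences, among them CML38 (-2.19), CML37 (-0.11), AT5MAT (-0.41) and AT3G21670 (-0.79), the last 3 then under 2-fold. With a floor of 10 GRX480 was 1.22. Values near the floor therefore depend on it, and array number, not only signal, limits what the pair can show. No paired analysis was possible because the high-light comparison has 1 array a side and every label carries replicate 1, so no replicate block could be fitted. A CO2 difference averaged over the 3 light levels is another comparison and was not computed.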
